A study of Homo sapiens with 3 samples.

Results

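The small nucleolar RNA (snoRNA) host genes are long noncoding RNA genes that carry snoRNAs in their introns. Members were the lncRNA genes of GENCODE v44 whose symbol is SNHG followed by a number, together with GAS5, ZFAS1 and DANCR, which gave 31 of 61193 genes. The rule uses names and not measured values. The data are RNA-seq of 3 replicates of HEK293T, a line derived from human embryonic kidney and transformed with adenoviral DNA, to which the large T antigen of SV40 was added. The labels name no treatment or further genotype, the cells were collected a day after seeding and belong to 1 condition, so no test between conditions was possible and the spread given is that between replicates. The libraries are of the QuantSeq 3′ type, in which priming at the poly(A) tail places the reads near the 3′ end of each transcript. The material is labelled as genomic DNA, although the extraction protocol is one for RNA.

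snoRNAs guide the chemical modification of ribosomal and spliceosomal RNA. C/D box snoRNAs carry the conserved C and D motifs and direct methylation of the ribose by fibrillarin (FBL), and H/ACA box snoRNAs direct pseudouridylation by dyskerin (DKC1), while small Cajal body RNAs (scaRNAs) do the same for spliceosomal RNA. Most are cut from an intron after splicing, so that one transcript yields a stable snoRNA and a spliced exon RNA, which for several hosts is degraded when ribosomes engage its short reading frames. Transcription of many hosts starts within a run of pyrimidines, as it does at ribosomal protein genes.

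The libraries held 6262175 to 8521624 counts on transcripts. A count of 0 allows up to 3 counts, which corresponded to between 0.352 and 0.479 counts per 1000000 (CPM). The limit covers counting error only, since no molecular identifiers were counted. Replicate 3 stood apart in the share of counts on genes of the mitochondrial genome, which was 25.8%, compared with 9.59% in replicate 1 and 5.70% in replicate 2. Of the genes checked as markers of the line, LIN28B had 40.8 ± 14.8 TPM (SD, n = 3) and PAX2 had 8.96 ± 3.24 TPM (SD, n = 3). KRT8 and VIM had means of 1.35 and 0.657 TPM, while KRT18, NEFL and NEFM had 0 counts in every replicate. PTPRC, CD3E, ALB, CDH5 and COL1A2, which mark other cell types, also had 0 counts, and DES and LUM had means of 0.457 and 0.147 TPM.

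The family was present at very unequal levels. TPM, the count per base of transcript rescaled to 1000000 per library, was summed over the transcripts of each gene. The 31 members together held 1098, 961 and 957 TPM in replicates 1, 2 and 3, a mean of 1006 ± 80.2 TPM (SD, n = 3). The 3 highest members, SNHG19, SNHG4 and SNHG9, held 94.6% ± 0.858 of it (SD, n = 3), and SNHG19 alone held 84.1% ± 1.69 (SD, n = 3). Of the counts of the members, which are not divided by length, SNHG19 held 53.3% ± 2.66 (SD, n = 3). Without SNHG19 the sum was 160 ± 26.1 TPM (SD, n = 3). In these bulk libraries, fewer cells that express a gene and less RNA per cell cannot be told apart. A mean of at least 1 TPM was reached by 12 of the 31 members (38.7%), by 15.2% of 17557 lncRNA genes, by 38.2% of 19926 protein-coding genes and by 21.7% of all genes. The share at or above 10 TPM was 16.1% of the members, which is 5 genes, compared with 3.35% of lncRNA genes and 19.5% of protein-coding genes. The median over members of log2(TPM + 1) was 0.28 ± 0.083 (SD of the medians of the replicates, n = 3), and the median of the mean TPM was 0.262 for the members, 0.195 for protein-coding genes and 0 for lncRNA genes.

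SNHG19 (ENSG00000260260), which lies on the minus strand of chromosome 16 (2154792 to 2155405, GRCh38) and hosts the C/D box snoRNA SNORD60, was the highest member. It had 913, 800 and 824 TPM in replicates 1, 2 and 3, a mean of 846 ± 59.5 TPM (SD, n = 3), from 1417, 1049 and 1880 counts. On this scale, which includes mitochondrial genes, the replicates lay close together. In TPM without mitochondrial genes they spread more, at 1182, 945 and 1478, a mean of 1202 ± 267 (SD, n = 3). SNHG19 ranked number 3 among lncRNA genes and 145 among all genes by mean TPM. SNHG4 (ENSG00000281398), on the plus strand of chromosome 5 (139274102 to 139284899) and host of SNORA74A, had 86.4, 60.7 and 60.5 TPM from 913, 536 and 937 counts. Its mean of 69.2 ± 14.9 TPM (SD, n = 3) was 12.2 times below that of SNHG19. In CPM, which is not divided by length, SNHG19 had 197 ± 26.9 and SNHG4 109 ± 22.3 (SD, n = 3), a ratio of 1.81. SNHG9 (ENSG00000255198), on the plus strand of chromosome 16 (1964895 to 1965509) and host of SNORA78, had 44.2, 38.9 and 25.6 TPM from 56, 41 and 47 counts, with a mean of 36.2 ± 9.57 TPM (SD, n = 3). SNHG9 stood in place 3 only after division by its short length. In CPM it was number 7 of the members, SNHG3 was number 3, and SNHG19 and SNHG4 kept the first places.

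GAS5 (ENSG00000234741), a growth arrest transcript that hosts a series of C/D box snoRNAs, lies on the minus strand of chromosome 1 (173858559 to 173868882). It had 11.8, 23.9 and 10.4 TPM from 58, 99 and 74 counts, so that replicate 2 was the highest, and the mean was 15.4 ± 7.46 TPM (SD, n = 3). SNHG26 (ENSG00000228649), host of SNORD93, had 11.1, 9.66 and 10.9 TPM from 83, 61 and 126 counts and a mean of 10.6 ± 0.793 TPM (SD, n = 3). Its spread was larger in TPM without mitochondrial genes, 15.1 ± 4.10, and in CPM, 12.1 ± 2.54 (SD, n = 3). SNHG3 (ENSG00000242125), host of SNORA73A and SNORA73B, had 11.03, 7.87 and 7.09 TPM from 101, 68 and 108 counts, with a mean of 8.66 ± 2.09 TPM (SD, n = 3). The means of these 3 genes lay between 8.66 and 15.4 TPM. SNHG7 (ENSG00000233016), host of SNORA17A and SNORA17B, had 7.26, 7.59 and 5.01 TPM from 68, 57 and 71 counts, with a mean of 6.62 ± 1.41 TPM (SD, n = 3). SNHG20 (ENSG00000234912), which holds the scaRNA SCARNA16, had 5.37, 5.22 and 2.36 TPM from 33, 33 and 19 counts, with a mean of 4.32 ± 1.70 TPM (SD, n = 3). In both genes replicate 3 was the lowest.

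The next 4 members rested on few counts. SNHG6 (ENSG00000245910), host of SNORD87, had 2.30, 1.63 and 2.82 TPM from 5, 3 and 9 counts. DANCR (ENSG00000226950), a differentiation-associated lncRNA that hosts SNORA26, had 2.47, 2.21 and 0.835 TPM from 8, 6 and 4 counts. SNHG25 (ENSG00000266402) had a mean of 1.21 ± 1.37 TPM (SD, n = 3) from 0, 1 and 5 counts, and SNHG10 (ENSG00000247092) had 1.14 ± 0.753 TPM (SD, n = 3) from 7, 3 and 21 counts. For SNHG25 and SNHG10 the placement above 1 TPM came from replicate 3, the replicate with the large mitochondrial share, and without it their means were 0.469 and 0.730 TPM. A level of at least 1 TPM in every replicate was seen for 9 members. The member closest below the threshold was SNHG5 at 0.739 TPM, from 19, 14 and 19 counts, which is a steady count spread over a long transcript.

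Among the remaining members, SNHG14, the host of the SNORD115 and SNORD116 clusters in the imprinted region of chromosome 15, had 8, 8 and 6 counts, and SNHG29 had 4, 2 and 4. ZFAS1, SNHG17, SNHG12, SNHG15, SNHG8, SNHG11, SNHG16 and SNHG22 had between 9 and 1 counts over the replicates together. SNHG1, SNHG18, SNHG21, SNHG27, SNHG28, SNHG30, SNHG31 and SNHG32 had 0 counts in every replicate. Counts were therefore found on 23 of the 31 members (74.2%), compared with 40.2% of lncRNA genes and 63.5% of protein-coding genes. In 14 members no replicate exceeded the 3 counts that a count of 0 allows, and 6 of these had some counts. Their levels lay at or near this limit. The parts of depth and of the counting of shared bases in this were not tested.

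**Figure D1:**
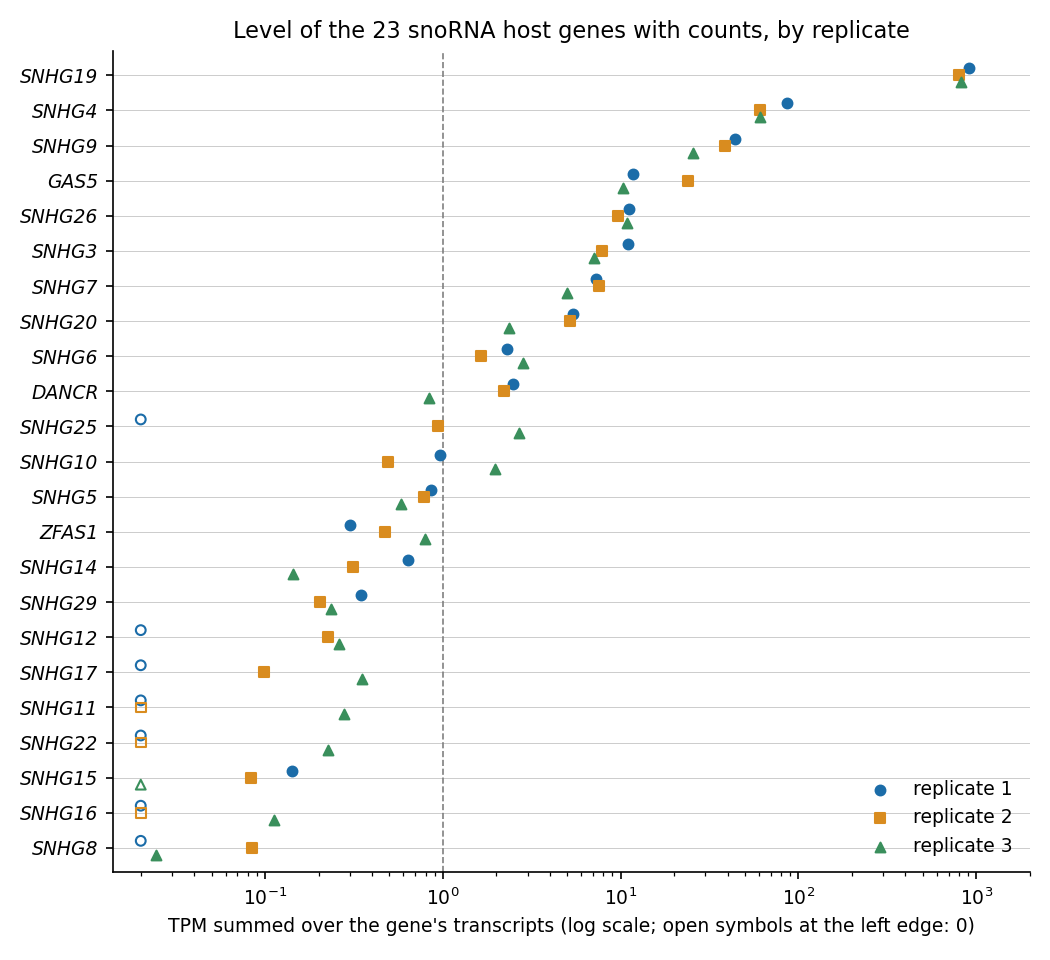
TPM of the 23 host genes with counts (rows, ordered by mean) in replicates 1, 2 and 3 (circles, squares and triangles) on a log axis. Open symbols at the left edge stand for 0, and the dashed line is at 1 TPM. SNHG19 lies between 800 and 913 TPM, SNHG4 between 60.5 and 86.4 TPM, and replicates spread widely below about 2 TPM.

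Neighbours in the order of mean TPM were compared by their log2 difference within each replicate. The difference exceeded its SD between replicates, with the same sign in 3 of 3 replicates, for SNHG19 over SNHG4 (3.61 ± 0.20), SNHG4 over SNHG9 (0.93 ± 0.29), SNHG9 over GAS5 (1.24 ± 0.57) and SNHG7 over SNHG20 (0.56 ± 0.25). SNHG26 over SNHG3 (0.28 ± 0.27) and SNHG3 over SNHG7 (0.34 ± 0.26) exceeded it by little. GAS5 and SNHG26 did not differ beyond their spread (0.41 ± 0.71), and neither did any neighbouring pair from SNHG20 down to SNHG10. With 3 replicates of 1 condition these are descriptions of the order, without p-values.

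For 9 members with at least 50 counts in all, the exact 95% Poisson interval of the CPM shows how far counting error alone reaches. The CPM was divided by all counts of a library, of which mitochondrial genes held 9.59%, 5.70% and 25.8% in replicates 1, 2 and 3. Intervals without mitochondrial counts were not computed, so the separations and overlaps given here hold for this scale only. The intervals of SNHG4 were 122 to 139 CPM in replicate 1, 78.5 to 93.2 in replicate 2 and 103 to 117 in replicate 3, so no pair of replicates overlapped. For SNHG19, replicate 2 (158 to 178 CPM) lay below replicate 1 (192 to 213) and replicate 3 (211 to 231). GAS5 went the other way, with replicate 2 at 12.8 to 19.2 CPM, above replicate 1 at 6.27 to 10.7 and replicate 3 at 6.82 to 10.9. The intervals of the 3 replicates overlapped for SNHG3, SNHG26, SNHG7, SNHG9 and SNHG5. For SNHG20, replicate 3 (1.34 to 3.48 CPM) lay below replicate 2 (3.63 to 7.40).

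**Figure D2:**
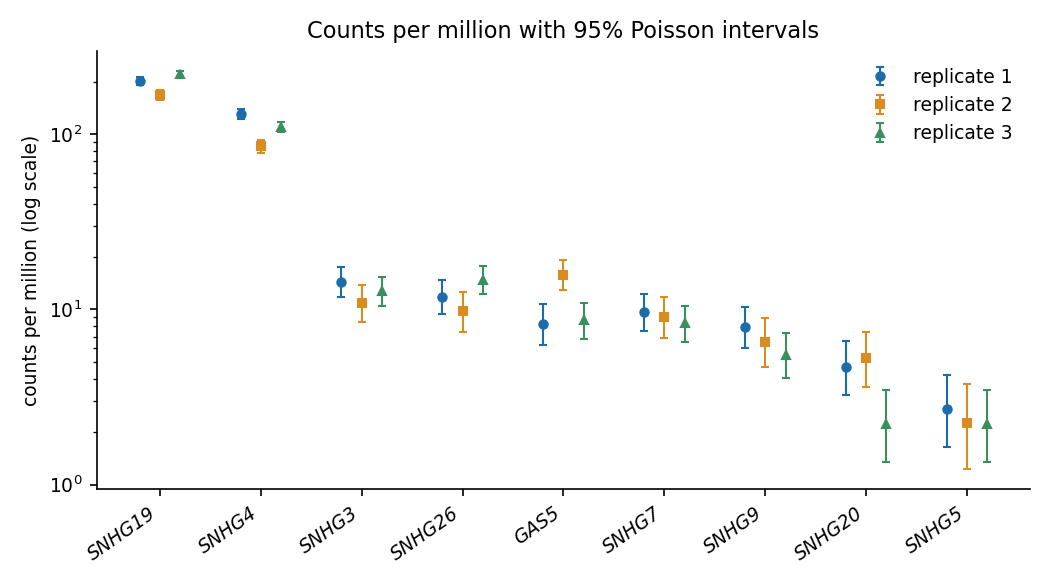
CPM on a log axis for the 9 host genes with at least 50 counts over the 3 replicates, ordered by count. Points are replicates 1, 2 and 3 (circles, squares and triangles) and bars are exact 95% Poisson intervals, which cover counting error only. Replicate 2 lies lowest for SNHG19 and SNHG4 and highest for GAS5.

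The TPM of the members was lower in replicate 3, the replicate with the larger mitochondrial share, on the scale that includes mitochondrial genes. Over the 6 members with at least 50 counts in every replicate, the median log2 ratio of replicate 3 to the mean of replicates 1 and 2 was -0.35, and 5 of the 6 were lower. Over 5656 nuclear genes with the same minimum it was -0.54, and 87.5% were lower. When TPM was rescaled without mitochondrial genes, the members' median turned to 0.17, with 2 of 6 lower, and that of all nuclear genes was -0.0058. On that scale SNHG19 was higher in replicate 3 by 0.47, SNHG26 by 0.60 and SNHG4 by 0.24, whereas SNHG7 differed by -0.033 and GAS5 by -0.23.

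The counts of a host gene came mostly from a single annotated transcript, although many were listed. The members had 680 listed transcripts, a median of 10 per gene compared with 1 for lncRNA genes and 6 for protein-coding genes, and 49 of them had counts. In the 9 members with at least 50 counts, the leading transcript held a median of 94.4% of the gene's counts, and in 4 of these members it was the canonical transcript of the annotation. Exonic bases of a transcript are called own here when all other listed transcripts on that strand lack them. In 600 member transcripts (88.2%) none of the last 300 exonic bases were own, compared with 48.3% of lncRNA transcripts and 68.5% of transcripts of protein-coding genes. Transcripts whose last 300 bases were at least 50% own held 95.5% of the 8120 counts of the family, and those with none held 2.41%. The corresponding shares of counts were 90.7% and 6.31% for lncRNA genes and 90.0% and 6.12% for protein-coding genes. How the counting treated reads that fall on several transcripts is not given in the sources used here, and its part in these levels was not tested.

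Members that had a transcript with mostly own last bases also had more counts, with a median of 26.5 compared with 0 over the replicates together. In 18 members the best transcript had at least 50% own last bases, and 9 of these (50%) had a mean of at least 1 TPM, while 1, SNHG18, had no counts. In the other 13 members, 3 (23.1%) reached 1 TPM, namely SNHG9, SNHG6 and SNHG25, and 7 had no counts. The same split gave 16.6% and 4.22% for lncRNA genes and 48.5% and 10.6% for protein-coding genes. SNHG1 (ENSG00000255717), which hosts the SNORD22 and SNORD25 to SNORD31 series had 0 counts. It has 54 listed transcripts with 23 own bases in all, and the best of them has 0.667% own bases at its end. SNHG19 is the opposite, since its only listed transcript, SNHG19-201, shares no exonic base with another and no word of 31 bases with a transcript of another gene. The best transcript of SNHG31, another member at 0, had 3.33% own last bases, and those of SNHG21 and SNHG28 had none.

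**Figure D3:**
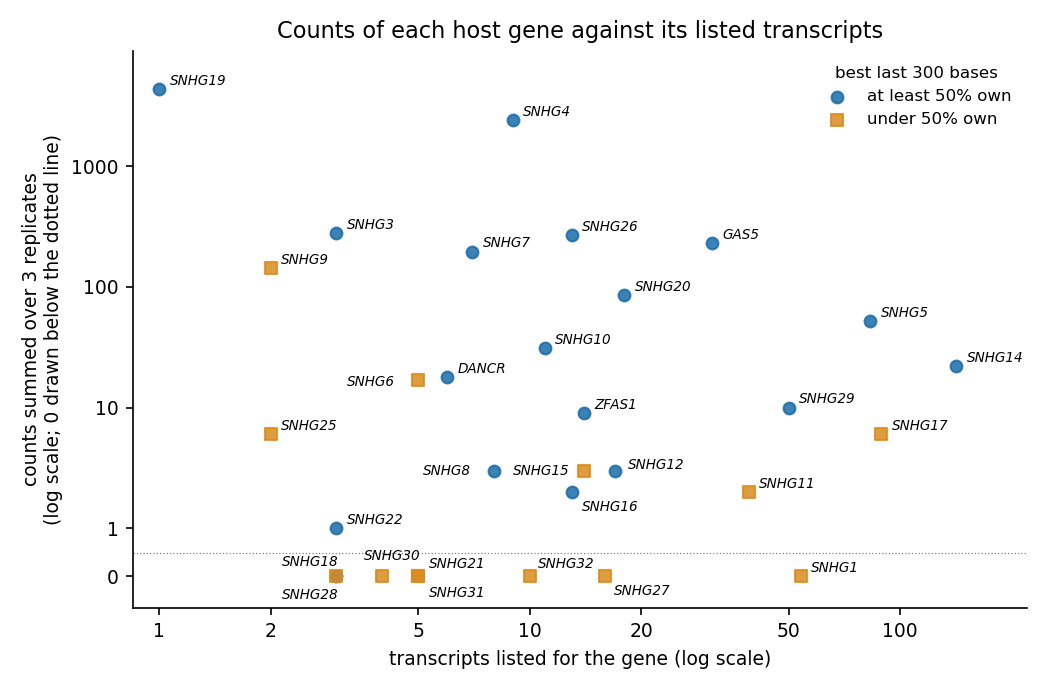
Counts of each of the 31 host genes summed over the 3 replicates (vertical, log axis, with 0 below the dotted line) against the number of transcripts listed for it (horizontal, log axis). Circles are the 18 genes with a transcript whose last 300 bases are at least 50% own, squares the 13 others, and SNHG18 and SNHG28 share a point. SNHG9 is the only square above 50 counts, and 7 of the 8 genes at 0 are squares.

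The 3′ ends of the leading transcripts are those annotated in GENCODE v44. The last 60 bases of 3 of them are shown because this is where a poly(A)-primed library reads. Counts per transcript do not give the position of the reads. The deposited length was 342 bases for SNHG19-201, compared with 394 in v44, and 275 for SNHG9-201, compared with 339. The counted ends of SNHG19-201 and SNHG9-201 may therefore differ from those shown. Capitals mark the last AATAAA, the usual poly(A) signal, where this or ATTAAA was found. The ends lie at position 2154792 of chromosome 16 for SNHG19-201, 139284899 of chromosome 5 for SNHG4-202 and 1965509 of chromosome 16 for SNHG9-201 (GRCh38).
SNHG19-201: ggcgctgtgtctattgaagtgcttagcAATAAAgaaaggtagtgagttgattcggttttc
SNHG4-202: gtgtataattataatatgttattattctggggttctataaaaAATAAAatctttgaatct
SNHG9-201: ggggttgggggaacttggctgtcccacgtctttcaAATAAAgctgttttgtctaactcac

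A signal was present in the last 60 bases of the leading transcripts of SNHG19, SNHG4, SNHG9 and SNHG26 and not in those of GAS5, SNHG3, SNHG7, SNHG20 and SNHG5. It was found in 35.04% of all 223558 listed transcripts and in 46.8% of listed lncRNA transcripts. Of the 20 genomic bases just after the end, 3 were A for SNHG19-201, 4 for SNHG4-202 and 1 for SNHG9-201, compared with 13 for GAS5-231 and 20 for SNHG7-204. At least 12 As were found after 4.88% of the 9265 leading transcripts of nuclear genes with at least 50 counts, where the median was 4. An A-rich genomic stretch can also be primed by oligo(dT), and its part in the counts of GAS5 and SNHG7 was not tested.

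GAS5 had 31 listed transcripts, of which GAS5-231 held 97.4% of the counts, with 55, 96 and 74 in the replicates. Its end lies 438 bases beyond that of the canonical transcript, and its last 300 bases were all own on the same strand. The strand setting of the counting is not given in the sources used here. The other GAS5 transcripts with counts, a retained-intron form and a shorter one, had 4 and 2 counts in all.

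In 5 members with at least 50 counts the leading transcript was not the canonical one, and its end lay elsewhere. GAS5 is among these 5, although its canonical transcript was not listed and could not lead. SNHG26-212, with 76, 55 and 124 counts, ends 14393 bases before the canonical end, and the canonical SNHG26-204 had 13 counts. SNHG5-230 is annotated as a retained intron, ends 22159 bases before the canonical end and held 94.2% of the counts of SNHG5. SNHG7-204, with 59, 40 and 68 counts, ends 3868 bases before the canonical end, and the canonical transcript had 0 counts. SNHG20-218, with 18, 28 and 6 counts, ends 332 bases beyond it, and none of its last 300 bases are own. SNHG3 was led by its canonical transcript SNHG3-201, with 89, 58 and 83 counts, while a retained-intron form, SNHG3-202, had 11, 10 and 25. SNHG20-218 shared 29.5% of its 31-base words with transcripts of other genes, 21.7% with SEC14L1 alone. The leading transcripts of SNHG4 and SNHG3 shared 10.1% with MATR3 and 8.52% with RCC1, genes on the same strand that had 0 counts and 4, 1 and 2 counts. With all other genes together they shared 15.9% and 13.8%. The corresponding totals were 23.05% for GAS5, 21.1% for SNHG7, 21.0% for SNHG26 and 13.0% for SNHG5, and 0 for SNHG19 and SNHG9.

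Annotation gave a snoRNA or scaRNA in an intron of 30 of the 31 members, so the name of the family held for these genes by annotation. GAS5 had none in GENCODE v44 but 11 in RefSeq, among them SNORD44, SNORD47 and SNORD74 to SNORD81. By position in RefSeq, the number was also 30, with SNHG27 as the member without one. In GENCODE the members held 144 snoRNA or scaRNA genes on their strand, 139 of them in an intron of a transcript and 5 in exons only. Of the 139, 76 also overlapped an exon of another transcript of the host. Of the 144, 110 were named as C/D box (SNORD) genes, 25 as H/ACA box (SNORA) genes and 5 as scaRNAs. SNHG14 held 84 of the 144, all C/D box.

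Very few reads fell on the hosted RNAs, which in their mature form lack a poly(A) tail. Counts were found on 10 of the 144 (6.94%), with 120, 82 and 175 counts in the replicates, compared with 157 of 990 listed snoRNA and scaRNA genes (15.9%). All 10 lay outside SNHG14, where they were 16.7% of 60, and none of the 84 in SNHG14 had a count. In 7 of the 10, a replicate exceeded 3 counts. How reads on a snoRNA that overlaps a host exon were counted is not given, and its part in these shares was not tested. SNORD104, in an intron of SNHG25, had 66, 51 and 146 counts, or 9.40, 8.14 and 17.1 CPM, and ranked number 5 by count among snoRNA and scaRNA genes. Its 95% Poisson interval in replicate 3, 14.5 to 20.2 CPM, lay above those of replicate 1 (7.27 to 11.96) and replicate 2 (6.06 to 10.7). The host SNHG25 had 0, 1 and 5 counts, so the snoRNA was above its host in every replicate. Of the last bases of SNHG25-202, the transcript with these counts, only 19% were own. The snoRNA genes SNORA50C and ENSG00000281311 overlap an exon of SNHG25 and had 0 counts in every replicate. How reads on such shared bases were counted is not given, and its part in the low count of SNHG25 was not tested.

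Of the next 4, SNORD99 in SNHG12 had 6, 9 and 10 counts against 0, 1 and 2 for the host, and SNORD1B in SNHG16 had 12, 3 and 7 against 0, 0 and 2. SNORA26 in DANCR had 15, 7 and 0 counts against 8, 6 and 4, so that the order turned in replicate 3. In SNHG3 the host was the higher, with SNORA73B at 14, 4 and 4 counts against 101, 68 and 108. SNORD60, inside the highest member SNHG19, had 0, 1 and 1 counts against 1417, 1049 and 1880. Another listed snoRNA gene, ENSG00000281010 (chr16:2155025-2155104, minus strand), covers nearly all of SNORD60 and had 0 counts in every replicate. How reads on both were counted is not given in the sources used here, and its part in the low count of SNORD60 was not tested. Counts of a host and of its snoRNA thus stood in opposite order in different members. Both are counts and are not divided by length.

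The sequences of SNORD104, SNORD99, SNORD60 and SNORA26 are shown to compare the hosted RNA that was counted most with one that was hardly counted in the most abundant host, and with an H/ACA box RNA. They lie at chr17:64146083-64146152 (plus strand), chr1:28578749-28578822 (minus strand), chr16:2155023-2155105 (minus strand) and chr4:52713249-52713370 (plus strand) of GRCh38. Capitals mark a C box matching TGATGA and the last D box CTGA in the C/D box RNAs, and an H box matching ANANNA and the last ACA in SNORA26.
SNORD104: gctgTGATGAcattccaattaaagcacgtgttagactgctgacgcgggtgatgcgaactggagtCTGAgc
SNORD99: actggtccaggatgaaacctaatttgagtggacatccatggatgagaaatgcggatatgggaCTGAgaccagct
SNORD60: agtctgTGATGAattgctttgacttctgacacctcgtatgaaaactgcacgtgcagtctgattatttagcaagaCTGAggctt
SNORA26: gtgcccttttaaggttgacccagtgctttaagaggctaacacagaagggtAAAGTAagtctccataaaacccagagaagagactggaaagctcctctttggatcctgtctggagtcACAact

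SNORD104 and SNORD60 both hold the exact C and D letters near their ends, as did 94 of the 110 SNORD genes inside the members (85.5%) and 227 of 313 annotated SNORD genes (72.5%). SNORD99 has the D box letters and no exact TGATGA.

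**Figure D4:**
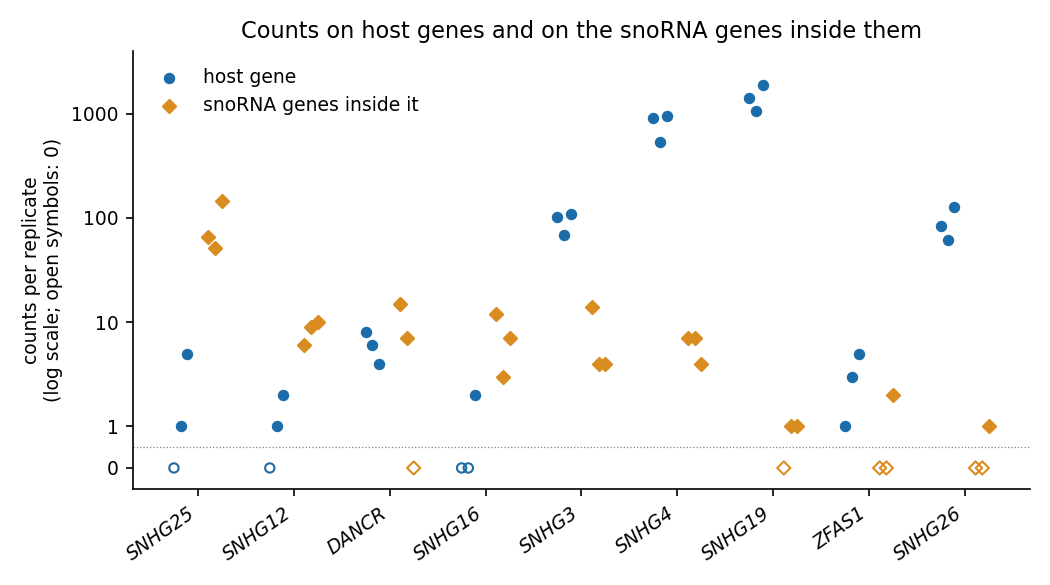
Counts per replicate (log axis, open symbols for 0) of the 9 host genes with counts on a hosted snoRNA (circles) and of the snoRNA genes inside them summed (diamonds), with 3 points each for the replicates. For SNHG25, SNHG12 and SNHG16 the snoRNA is higher in every replicate, and for SNHG3, SNHG4, SNHG19, SNHG26 and ZFAS1 the host is.

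Promoter sequences of RefSeq (GRCh38.p14, 250 bases before to 50 after the start site) were matched to 27 of the 31 members, leaving SNHG6, SNHG9, SNHG15 and SNHG25 without one. A terminal pyrimidine start was defined as a C within 2 bases of the start site followed by at least 4 more pyrimidines. The stretch from 15 bases before the start to 25 bases from it is shown for the highest members SNHG19 and SNHG4, for ZFAS1 and SNHG12, whose levels were low, and for SNHG3, which lacks the run. Capitals mark the pyrimidine run.
SNHG19: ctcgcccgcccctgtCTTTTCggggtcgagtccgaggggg
SNHG4: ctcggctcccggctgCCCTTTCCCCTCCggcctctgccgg
ZFAS1: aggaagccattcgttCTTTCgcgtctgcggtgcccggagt
SNHG12: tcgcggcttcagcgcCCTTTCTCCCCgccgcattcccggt
SNHG3: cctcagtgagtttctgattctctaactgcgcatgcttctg

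Such a start was found in 9 of 27 members (33.3%), namely SNHG19, SNHG4, SNHG7, DANCR, SNHG5, ZFAS1, SNHG12, SNHG18 and SNHG32. It was found in 10.5% of 35116 promoters, in 9.52% of those of lncRNA genes, in 23.1% of those of protein-coding snoRNA hosts and in 63.3% of 79 promoters of cytosolic ribosomal protein genes. The table can hold several promoters of a gene, so these shares are of promoters. The call depends on the start site used. At the canonical start of GENCODE, 4 of the 9 kept it (SNHG7, DANCR, ZFAS1 and SNHG12), SNHG19, SNHG4, SNHG5, SNHG18 and SNHG32 lost it, and GAS5 and SNHG29 gained it, which made 6 members. The start sites of the sources differ by 47 bases for SNHG19, 30 for SNHG4 and 1056 for GAS5. At the RefSeq start, the run was 6 bases long in SNHG19, 13 in SNHG4 and 11 in SNHG12, and 3 members had at least 6 more pyrimidines. Members with the run at the RefSeq start included the highest, SNHG19, and also SNHG18 and SNHG32, which had 0 counts. Among the 9 members at or above 1 TPM with a promoter, 4 had it (44.4%).

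The study maps i-motifs (iMs) and G-quadruplexes (G4s), folded structures of C-rich and G-rich DNA, at promoters. Of the stringencies it searched, the rule of 4 tracts of at least 3 Cs or Gs with loops of 0 to 7 bases was used here and was met by 5 of 27 member promoters (18.5%), compared with 26.8% of all promoters, 21.1% of those of lncRNA genes and 34.7% of those of protein-coding hosts. The order turned under looser rules, with 96.3% of member promoters and 84.6% of all promoters for tracts of at least 2, and 48.1% and 39.4% for loops of 0 to 12 bases. Sequences of C tracts on the transcribed gene's own strand were in SNHG4 and SNHG18, and those of G tracts in SNHG26, SNHG22, SNHG18 and SNHG31. The ones of the expressed members SNHG4 and SNHG26 are given with their tracts in capitals. They start 18 and 205 bases before the start site, and that of SNHG4 runs across it into the pyrimidine run shown above.
SNHG4: CCCCtcggctCCCggctgCCCtttCCCC
SNHG26: GGGGcaaagtGGGagccGGGGccaagtGGG

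With tracts of at least 3 and loops of 0 to 7 bases, SNHG19 met neither the C nor the G rule. Its promoter, at chr16:2155309-2155608 on the minus strand, is shown whole as that of the most abundant member, with the pyrimidine run in capitals.
SNHG19: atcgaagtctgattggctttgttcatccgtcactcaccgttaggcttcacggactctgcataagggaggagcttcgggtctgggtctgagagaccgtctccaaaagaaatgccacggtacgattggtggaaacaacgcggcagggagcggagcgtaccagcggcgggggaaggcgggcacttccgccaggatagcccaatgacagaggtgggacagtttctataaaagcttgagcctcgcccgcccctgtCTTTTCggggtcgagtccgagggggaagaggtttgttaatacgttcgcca
The letters TATAAA were found between 40 and 15 bases before the start of SNHG19 and SNHG7, which is 2 of 27 members (7.41%), compared with 2.3% of all promoters. These are descriptions of sequence, and folding or binding was not analysed here.

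**Figure D5:**
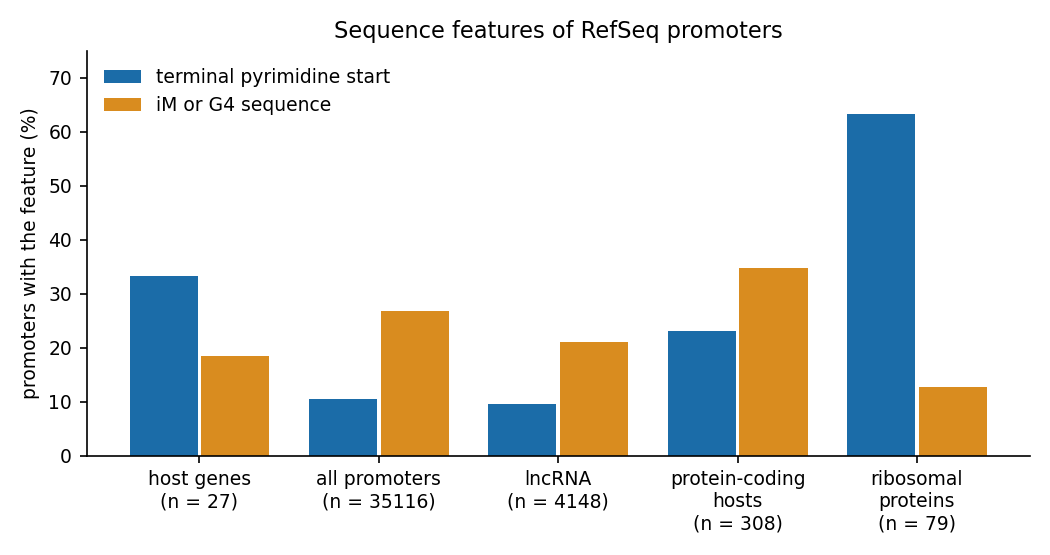
Share of RefSeq promoters, in percent, with a terminal pyrimidine start (left bar of each pair) and with an iM or G4 sequence (right bar), for the host genes and 4 other pools with their number of promoters. The host genes stand at 33.3% and 18.5%, all promoters at 10.5% and 26.8%, and ribosomal protein genes at 63.3% and 12.7%.

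Most snoRNAs outside this family lie in introns of protein-coding genes. By the same annotation rule 270 such hosts were found, with a median of 2.06 TPM. A mean of at least 1 TPM was reached by 159 of them (58.9%), compared with 38.2% of protein-coding genes. The highest were NUCKS1 at 2128 ± 738 TPM, EIF1AX, a translation initiation factor, at 834 ± 288, TIMM23 and TOMM20, subunits of the mitochondrial import channels, at 801 ± 325 and 777 ± 121, and NCL, the nucleolar protein nucleolin, at 560 ± 248 TPM (SD, n = 3). SNHG19, at 846 ± 59.5 TPM, lay among these genes. The summed level of the 31 members, 1006 TPM, compares with 11410 TPM for the 270 protein-coding hosts.

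The proteins that carry and mature the hosted RNAs were read from a fixed list of 24 genes. Of these, 12 (50%) had a mean of at least 1 TPM, compared with 38.2% of protein-coding genes. Of the C/D box core, NOP58 had 6.67 ± 0.573 TPM and FBL had 4.71 ± 1.29 TPM (SD, n = 3), while NOP56 had 0.207 and SNU13 had 0.245 TPM. Of the H/ACA box core, DKC1 had 2.64 ± 1.21 TPM (SD, n = 3), and NHP2, NOP10 and GAR1 had 0.130, 0.223 and 0.105 TPM. NOP56, SNU13, NHP2, NOP10 and GAR1 rested on at most 2 counts in a replicate. All 7 genes of the list whose canonical transcript had at least 50% own last bases reached 1 TPM, compared with 3 of the 13 with none. The shares at 1 TPM in the same split were 53.2% and 26.0% for protein-coding genes and 82.1% and 48.6% for the protein-coding hosts. Among members with a canonical transcript in the tables the numbers were 5 of 10 and 2 of 8, compared with 16.4% and 9.56% for lncRNA genes.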

How the data were processed

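The deposited tables hold, for each of 247541 Ensembl transcripts, a count of reads, a transcript length and a TPM value, 1 table per replicate. The deposited counts are whole numbers of reads and were not normalized. In the deposited TPM, each count is divided by the transcript length, and every library is scaled to a sum of 1000000. Recomputing it from the other columns gave the same values. The submitters' processing notes name Trimmomatic 0.38.0, HISAT2 2.2.1, featureCounts and hg38. The settings for strand and for reads on several transcripts are not given in the sources used here. Reads come from 3′ ends, so division by length lowers long transcripts relative to short ones.

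Identifiers were matched without version to GENCODE v44, which gave 223558 transcripts of 61193 genes, and the length was the same in v44 for 84.1% of the member transcripts. Values were summed per gene. The members and gene lists were chosen with earlier results of these data known. Members with a mean of at least 1 TPM were named with values, the 10 highest in every replicate, then the 3 highest of the others by count, the 5 hosted RNAs with the most counts, the 5 highest protein-coding hosts and every snoRNP core protein. A pseudocount of 1 was used for log2 values. No test was made, since all samples belong to 1 condition. The sequence searches and sums were tested on simulated data. The alternatives were other thresholds, CPM, mitochondrial genes left out, another pseudocount, the canonical transcript alone, other sequence rules and each replicate left out in turn. RefSeq snoRNA positions were added after seeing the data. Libraries held 6262175 to 8521624 counts, and intervals are exact 95% Poisson intervals. Scripts ran in Python 3.11.15 with pandas 2.3.3, numpy 2.4.6, matplotlib 3.10.9 and scipy 1.17.1. A gene and some sequences are not reported here.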

Additional observations from a re-analysis of the deposited data

How the results depend on the processing

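No paired analysis was possible because all 3 samples are of a single condition. At or above the threshold of 1 TPM were 12 members, which became 23 for a mean TPM above 0 and 5 for at least 10 TPM. Of the protein-coding hosts 159 reached 1 TPM and 82 reached 10 TPM, and for the snoRNP list the 12 became 20 above 0 and 6 at 10 TPM. The summed TPM of 1006 became 1425 with mitochondrial genes left out, and the sum in CPM was 369. The share of SNHG19, SNHG4 and SNHG9, the 3 highest members by TPM, was 84.3% in CPM. The median log2 level of 0.28 became 0.39 with mitochondrial genes left out, 0.38 in CPM, -1.69 with a pseudocount of 0.1 and 0.87 over members with a mean TPM above 0. The median log2 ratio of replicate 3 to the others turned from -0.35 to 0.17 with mitochondrial genes left out. The share on the leading transcript was 89.9% in TPM. A terminal pyrimidine start was found in 3 members when at least 6 more pyrimidines were asked for, and in 6 at the GENCODE canonical start, where SNHG19 and SNHG4 lacked it. The iM or G4 rule was met by 26 members with tracts of at least 2 (96.3%, all promoters 84.6%) and by 13 with loops of 0 to 12 (48.1%, all promoters 39.4%), whereas under the rule used the members were lower. Without replicate 3 the number of members at or above 1 TPM was 10, and SNHG25 fell from 1.21 to 0.469 TPM and SNHG10 from 1.14 to 0.730. Without replicate 1 SNHG25 was at 1.82 TPM. With mitochondrial genes left out, 7 of the 12 means rose by more than 1 SD. Counting the canonical transcript alone lowered 7 of 9, of which 4 by more than 1 SD, SNHG26 to 0.994 TPM and SNHG7, SNHG20 and SNHG10 to 0.

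In 14 of the 31 no replicate exceeded the 3 counts that a count of 0 allows.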
